A study of Mus musculus with 2 samples.

Results

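The 10 genes followed here were grouped under the integrated stress response and were measured in mouse liver: Atf4, Atf5, Ddit3, Trib3, Chac1, Asns, Sesn2, Ppp1r15a, Xbp1 and Manf. They were taken by symbol from a deposited gene table of 21936 genes, in which 10 of 10 symbols were found in 11 rows. The second Ddit3 row is a 105-base entry (ENSMUSG00000116429) that lies inside the exons of the main Ddit3 entry (ENSMUSG00000025408), and it had 0 reads in both libraries.

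The series holds RNA sequencing of 1 knockout library from hnRNPK flox/flox Alb-Cre mouse liver and 1 control library from hnRNPK flox/flox mouse liver. Both genotypes carry the floxed Hnrnpk allele, and the knockout adds Alb-Cre, a transgene in which the albumin promoter drives the recombinase Cre, so that deletion is directed to hepatocytes and spares most other liver cells. The series title instead speaks of wild type and hnRNPK-MKO liver, a difference that could not be settled here. No source used here gives age, sex, strain or how many mice were pooled or sampled. The table held 12176239 counted reads for the knockout and 12428975 for the control. With 1 library per genotype no difference has a replicate check and no p-value is given, so each 95% interval below covers counting error only. Hnrnpk, which encodes the RNA- and DNA-binding protein hnRNP K, had 1411 reads in the knockout and 2559 in the control, a fold of 0.567 (95% interval 0.531 to 0.605). In RNA of whole tissue, fewer cells of a type and less RNA per cell cannot be told apart.

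The integrated stress response starts with kinases that phosphorylate the translation initiation factor eIF2, which lowers general protein synthesis but favours translation of the Atf4 mRNA. The transcription factor ATF4 then switches on genes of amino acid supply, redox balance and feedback control. Stress of the endoplasmic reticulum, which is heavily loaded in protein-secreting hepatocytes, feeds into the same pathway through one of these kinases and also acts through the separate IRE1-XBP1 and ATF6 branches. Much of the control of ATF4 and XBP1 therefore lies in translation and splicing, whereas the table counts reads per gene.

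Some short sequences show where such control acts. In Xbp1, the enzyme IRE1 cuts the mRNA at a pair of stem-loops and removes 26 coding bases, which changes the reading frame and yields the active factor. The removed stretch lies at chr11:5524282-5524307 (mm10, plus strand), in exon 4 of 5 of the GENCODE transcript, and is shown in capitals with its flanks. The Xbp1 count per library does not tell reads with and without this stretch apart. No source used here says whether reads that lack it were aligned and counted.
Xbp1 IRE1 site: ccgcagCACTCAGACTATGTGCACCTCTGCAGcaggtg

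RefSeq promoter windows (GRCm38.p6, the mm10 assembly), from 250 bases before to 50 after an annotated start, were at hand for 9 of the 10 members in 10 windows, with none for Manf. They were searched on both strands for TGATGNAA, the core of the ATF4 response element, and for TGACGTCA, the cyclic AMP response element. The element through which ATF6 and XBP1 act, CCAAT and CCACG with 9 bases between, and its second form, ATTGG and CCACG with 1 base between, were searched as well. None of the motifs overlapped another in these windows. The ATF4 core was in the windows of Chac1, Asns and Trib3, against 1304 of all 32851 windows (3.97%). The cyclic AMP response element was in the window of Ppp1r15a, against 588 windows (1.79%). The last 2 motifs were in no member's window, and in 39 (0.119%) and 12 (0.0365%) of all windows. The matches are given in capitals, in the direction of each gene. They are matches of letters only and do not show that a factor binds there. The Chac1 run is chr2:119351019-119351086 (plus strand), with the motif starting 193 bases before the RefSeq start. The Asns run is chr6:7693214-7693243 (minus strand), 23 bases before the RefSeq start and inside the span that the table gives for the gene. The Trib3 run is chr2:152344028-152344057 (minus strand). Its motif starts at base 15 after the RefSeq start but lies outside the span that the table gives for the gene. The Ppp1r15a run is chr7:45526269-45526310 (minus strand), with the motif starting 12 bases before the RefSeq start.
Chac1: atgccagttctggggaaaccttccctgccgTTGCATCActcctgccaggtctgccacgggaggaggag
Asns: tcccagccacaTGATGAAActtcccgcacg
Trib3: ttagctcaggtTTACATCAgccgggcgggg
Ppp1r15a: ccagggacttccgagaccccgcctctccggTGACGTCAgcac

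Levels of the members spanned a wide range in both libraries. FPKM divides the reads of a gene by its length and by the counted reads of the library, so it allows levels of different genes to be compared. Xbp1 was the most abundant member, at 107 FPKM in the knockout (4243 reads) and 114 in the control (4622 reads), and made up 47.7% of the members' summed FPKM in the knockout and 58.3% in the control. Atf4, Atf5 and Manf followed in this order in both libraries. Atf4 (44.0 FPKM) and Atf5 (39.2 FPKM) were close to each other in the knockout, where their intervals overlapped, while in the control they were apart at 33.2 and 23.3 FPKM. The other 6 members were much lower, between 0.360 and 4.64 FPKM in the knockout and between 0.147 and 3.67 FPKM in the control. Among these, Sesn2, Chac1, Trib3 and Ddit3 had overlapping intervals with their neighbours in the knockout, so their order there is not settled by the counts. In the control the run of overlapping neighbours went from Ppp1r15a through Chac1, Sesn2 and Trib3 to Ddit3. Asns stood below all other members in both libraries.

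**Figure D1:**
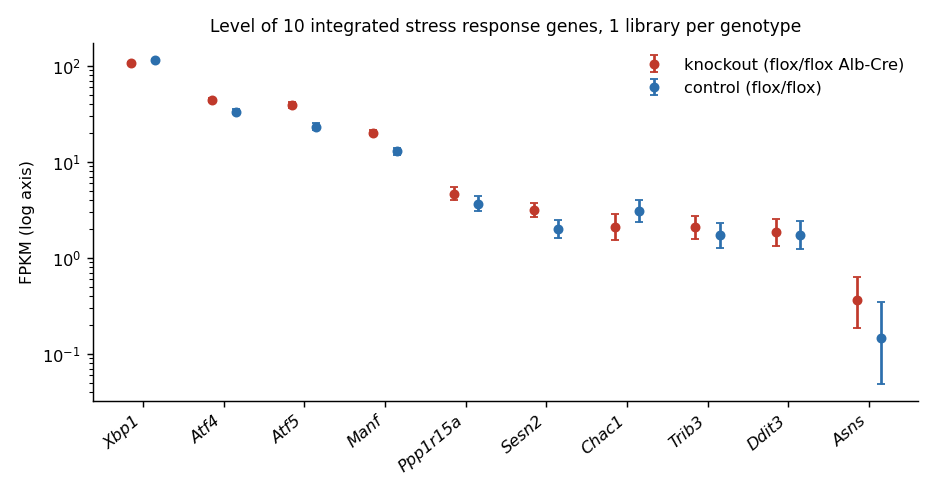
Level of each member in FPKM on a log axis, ordered by the knockout level, in the knockout library (red) and the control library (blue). Bars are exact Poisson 95% intervals of the read count. Xbp1 lies near 107 and 114 FPKM, Asns lies below 1 FPKM, and the intervals of knockout and control are apart for Atf4, Atf5, Manf, Sesn2 and, narrowly, Xbp1.

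Of the 10 members, 9 were expressed highly enough to be evaluated, which required at least 1 FPKM and 20 reads in the higher library. Asns, with 12 reads in the knockout and 5 in the control, was not. None of the 9 differed by 2-fold or more, while of all 9563 evaluated genes 242 (2.53%) were that much higher and 108 (1.13%) that much lower, together 3.66%. By a smaller size rule, a fold of at least 1.5 whose counting interval leaves out 1, Atf5, Sesn2 and Manf were higher in the knockout and 0 members lower. Over all evaluated genes 567 (5.93%) were higher and 487 (5.09%) lower by this rule. The median log2 ratio (knockout over control) was 0.35 over the 9 members and -0.03 over all evaluated genes. With 5 FPKM and 50 reads required, 4 members remained, with a median of 0.53 and 2 of them past the 1.5-fold rule. The ratio was above 0 for 7 members, against 46.0% of evaluated genes, and the counting interval lay above a fold of 1 for 5, against 20.8%. The members were chosen with results of these libraries known, so these counts are a description.

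**Figure D2:**
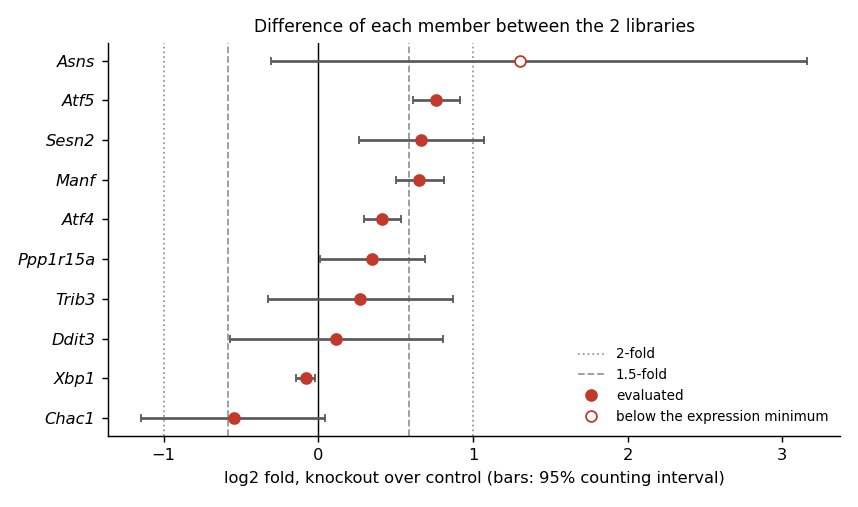
Log2 fold of the knockout over the control for each member, from scaled counts with nothing added, with exact 95% counting intervals. Dashed and dotted lines mark 1.5-fold and 2-fold. Atf5, Sesn2 and Manf lie beyond the dashed line to the right, Chac1 lies lowest, and Asns (open circle) has an interval from 0.810-fold to 8.94-fold.

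Among the transcription factors, Atf5 was past the 1.5-fold rule and Atf4, Ddit3 and Xbp1 were within it. Its log2 ratio of 0.76 lay above those of Sesn2 (0.66) and Manf (0.65), but after a correction for gene length these were 0.66 for Atf5, 0.66 for Sesn2 and 0.66 for Manf, so the order of the 3 is not settled. Atf5 (ENSMUSG00000038539, chr7:44812256-44816658) encodes a relative of ATF4 that is also translated preferentially under stress and is known for its part in the mitochondrial stress response. It had 951 reads in the knockout and 577 in the control, a fold of 1.70 (1.53 to 1.88). Only 3.99% of evaluated genes had a higher ratio. Of its 1993 exonic bases, 82 are shared with exons of the nucleoporin gene Nup62 on the opposite strand, and as many with Il4i1, which had 0 reads in both libraries. Nup62 differed the other way, with 157 reads in the knockout and 228 in the control. No source used here says whether counting used strand, so reads in a shared stretch could belong to either gene.

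Atf4 (ENSMUSG00000042406, chr15:80255184-80257541), the central effector of the pathway, had 1262 reads in the knockout and 974 in the control. The fold was 1.33 (1.22 to 1.45), short of 1.5, with an interval that leaves out 1. Ddit3 (chr10:127290774-127296288) encodes CHOP, a factor linked to cell death after prolonged stress. It had 39 reads in the knockout and 37 in the control, a fold of 1.08 (0.673 to 1.75), so a difference was not detectable at this depth. It shares 68 exonic bases with Mars1, a tRNA synthetase gene on the opposite strand with 701 reads in the knockout and 635 in the control. A further 13 are shared with Gm4189 on the opposite strand, for which no read count was given. Xbp1 (ENSMUSG00000020484, chr11:5520659-5525893) encodes the factor of the IRE1 branch, and its total was 0.944 of the control level (0.905 to 0.985). Its high count makes this small difference exceed counting error, as did the differences of 46.8% of evaluated genes.

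Neither feedback gene, Trib3 nor Ppp1r15a, passed the 1.5-fold rule. Trib3 (ENSMUSG00000032715, chr2:152337422-152344032) encodes a pseudokinase that binds ATF4 and restrains it. It had 54 reads in the knockout and 46 in the control, a fold of 1.21 (0.800 to 1.83), whose interval includes 1. Ppp1r15a (ENSMUSG00000040435, chr7:45522916-45526268) encodes GADD34, the phosphatase subunit that removes the phosphate from eIF2 and ends the response. Its 166 reads in the knockout and 134 in the control gave a fold of 1.27 (1.01 to 1.61), just clear of 1. The log2 ratio of 0.35 became 0.31 after a correction for gene length, and 0.25 with GC content corrected as well. Whether the interval leaves out 1 thus depends on such corrections. Ppp1r15a shares 12 exonic bases with Tulp2, which had 3 reads in the knockout and 6 in the control.

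Of the metabolic members, Sesn2 alone passed the 1.5-fold rule. Sesn2 (ENSMUSG00000028893, chr4:132492032-132510501), a sensor of leucine that restrains the growth kinase complex mTORC1 and is also a target of p53, had 134 reads in the knockout and 87 in the control. The fold was 1.58 (1.20 to 2.10), and 5.07% of evaluated genes had a higher ratio. Chac1 (ENSMUSG00000027313, chr2:119351229-119354381) encodes an enzyme that breaks down glutathione. It had 42 reads in the knockout and 63 in the control, a fold of 0.686 (0.453 to 1.03), with 93.4% of evaluated genes at a higher ratio. Its interval includes 1, and it passed the 1.5-fold rule as lower only after a correction for gene length, with or without one for GC content. Asns (ENSMUSG00000029752, chr6:7675169-7693254), the asparagine synthetase gene, is low in liver. Its 12 reads in the knockout and 5 in the control gave 2.47-fold with an interval of 0.810 to 8.94, too wide to read a direction. The ATF4 core shown above is in the promoter windows of Chac1, Asns and Trib3. Chac1 had a ratio below 1, and Asns and Trib3 had ratios above 1. Each of these intervals includes 1, so no direction is read from them.

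Manf (ENSMUSG00000032575, chr9:106838312-106891979) encodes a secreted protein of the endoplasmic reticulum that rises under protein-folding stress. It had 863 reads in the knockout and 564 in the control, or 20.1 FPKM in the knockout and 12.9 FPKM in the control. The fold was 1.57 (1.41 to 1.75), and 5.15% of evaluated genes had a higher ratio. Its exons share 166 bases with the antisense gene 4930524O07Rik and 146 with Dcaf1, both on the opposite strand, and 14 with Rbm15b on the same strand. No read count was given for 4930524O07Rik. Dcaf1 had 451 reads in the knockout and 447 in the control, and Rbm15b had 251 in the knockout and 270 in the control.

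Summed over the members, reads were 7766 in the knockout and 7109 in the control, a fold of 1.12 (1.09 to 1.16). Xbp1 held most of these reads. Its own fold was 0.944 (0.905 to 0.985), so leaving it out raises the summed fold. Without Xbp1 the sums were 3523 in the knockout and 2487 in the control, a fold of 1.46 (1.38 to 1.53). These sums are carried by Atf4, Atf5 and Manf, which had most of the remaining reads.

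**Figure D3:**
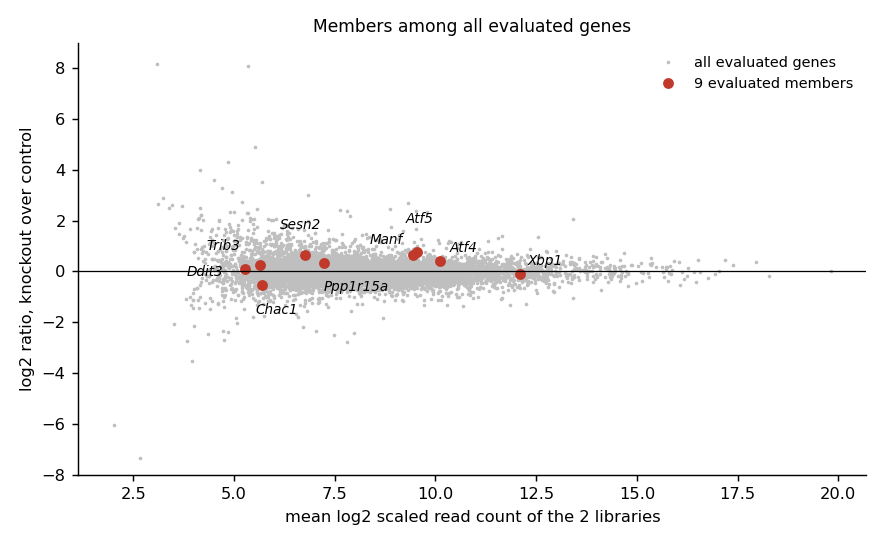
Log2 ratio of the knockout over the control against the mean log2 scaled count of both libraries, for all 9563 evaluated genes (grey) and the 9 evaluated members (red). The members lie within the body of the cloud, between log2 ratios of -0.54 for Chac1 and 0.76 for Atf5.

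The genes upstream of the members showed smaller differences. All 16 listed genes of the eIF2 kinases, eIF2 and its exchange factor and phosphatase control were evaluated, and 0 passed the 1.5-fold or the 2-fold rule. Their median log2 ratio was 0.02, with 8 above and 8 below 0. The kinase genes were close to the control, with folds of 1.04 for Eif2ak3 (PERK, the endoplasmic reticulum kinase; 0.850 to 1.28), 0.845 for Eif2ak4 (GCN2, the amino acid sensor; 0.674 to 1.06), 0.925 for Eif2ak1 and 0.917 for Eif2ak2. Eif2b2, a subunit of the exchange factor that recharges eIF2, was the highest at 1.42-fold (1.15 to 1.74). Dnajc3, a chaperone that inhibits PERK, was the lowest at 0.838 (0.804 to 0.874) and the most abundant, at 64.6 FPKM in the knockout and 77.7 in the control. Ppp1r15b, the constitutive counterpart of Ppp1r15a, had 1257 reads in the knockout and 1527 in the control, a fold of 0.847 (0.785 to 0.913). The 2 phosphatase subunit genes stood on opposite sides of the control level, but neither passed the 1.5-fold rule, and the Ppp1r15a interval was just clear of 1.

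Other ATF4 targets did not share one direction. Of 19 genes of amino acid synthesis and transport, 10 were evaluated, 1 was higher by either rule and 0 lower, with a median log2 ratio of 0.13. Over all evaluated genes 5.93% were higher by the 1.5-fold rule and 2.53% by the 2-fold rule. The gene past both rules was the glutamine transporter Slc1a5, with 85 reads in the knockout and 35 in the control (2.50-fold, 1.67 to 3.82). It reached the expression minimum only in the knockout, at 1.67 FPKM against 0.675 FPKM in the control. Psph and Slc7a5 of the same list also reached it in the knockout only, so these 3 had to be higher there. With 5 FPKM and 50 reads required, 0 of 7 genes passed either rule and the median log2 ratio was -0.0054. The lowest and most abundant was the alanine transaminase Gpt2, with 8508 reads in the knockout and 11662 in the control (0.750-fold, 0.730 to 0.772). The classical serine synthesis targets were near silent, with Phgdh at 2 reads in the knockout and 1 in the control and Psat1 at 6 in the knockout and 4 in the control. The cystine transporter gene Slc7a11 had 0 reads in both. Mthfd2, a mitochondrial folate enzyme below the expression minimum, had 37 reads in the knockout and 12 in the control (3.17-fold, 1.62 to 6.68). Also below it, Aldh18a1 had 18 reads in the knockout and 8 in the control, and Slc7a3 had 2 in the knockout and 0 in the control. Lower in the knockout were Slc1a4 (20 against 23 in the control), Slc7a1 (9 against 13) and Pycr1 (7 against 9). Except for Mthfd2, the intervals of these genes include 1. All genes below the minimum were named after their values were seen.

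Of 14 regulators and secreted factors under ATF4 control, 8 were evaluated, 1 was higher by either rule and 0 lower, with a median log2 ratio of 0.01. The shares of all evaluated genes that were higher were 5.93% (1.5-fold rule) and 2.53% (2-fold rule). The higher one was Gdf15, a stress-induced secreted factor that p53 also controls, with 120 reads in the knockout and 30 in the control (4.11-fold, 2.74 to 6.36). The lowest was Ddit4, an inhibitor of mTORC1, with 200 reads in the knockout and 304 in the control (0.677-fold, 0.563 to 0.812). The most abundant, the autophagy receptor gene Sqstm1, was at 1.12-fold (1.07 to 1.16). Among the members of this list under the expression minimum, Atf3, a factor induced by ATF4, had 14 reads in the knockout and 4 in the control, and the secreted glycoprotein gene Stc2 had 18 reads in the knockout and 2 in the control. The counting intervals of both had lower bounds above 1, at 1.13-fold for Atf3 and 2.22-fold for Stc2. Gadd45a (4 reads in the knockout and 5 in the control), Vldlr (13 in the knockout and 16 in the control) and Nupr1 (21 in the knockout and 11 in the control) had intervals that include 1. Fgf21, a liver hormone induced by ATF4, had 4 reads in the knockout and 1 in the control, a count too low for a direction. All 6 genes under the minimum were named after their values were seen.

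The tRNA synthetase genes, which ATF4 also induces, lay close together. All 13 matched genes, tRNA export included, were evaluated and 0 passed either rule, but 11 were above 0, against 46.0% of all evaluated genes, with a median log2 ratio of 0.17. The highest ratio was that of Aars, the alanyl-tRNA synthetase and the most abundant of the list in the knockout at 29.8 FPKM, with 3364 reads in the knockout and 2657 in the control (1.30-fold, 1.24 to 1.37). Nars, the asparaginyl-tRNA synthetase, was the most abundant in the control at 25.2 FPKM and stood at 1.13-fold (1.05 to 1.21). The lowest was the tRNA exporter Xpot at 0.782-fold (0.720 to 0.849).

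In the list of sensors, chaperones and degradation genes of the endoplasmic reticulum, 28 of 29 genes were evaluated. By the 1.5-fold rule 1 was higher and 0 lower, against 5.93% and 5.09% of all evaluated genes. By the 2-fold rule 0 passed, against 3.66%. The median log2 ratio was 0.16, and 20 were above 0, against 46.0% of all evaluated genes. The higher gene was Syvn1, the ubiquitin ligase HRD1 of endoplasmic reticulum-associated degradation, with 1740 reads in the knockout and 1179 in the control (1.52-fold, 1.41 to 1.64). Hspa5, which encodes the chaperone BiP, a standard readout of the ATF6 branch, had 12085 reads in the knockout and 9545 in the control (1.30-fold, 1.27 to 1.34). The lowest gene was Herpud1, another degradation component, at 0.714-fold (0.692 to 0.737). Its 6486 reads in the knockout and 9344 in the control made it the most abundant of the list in the control, at 322 FPKM, while Calr, the calreticulin gene, was the most abundant in the knockout at 269 FPKM. Herpud1 and Syvn1 act in the same degradation complex and stood at opposite ends of the list. The sensor genes Ern1 (IRE1) and Atf6 were at 0.908-fold (0.843 to 0.979) and 1.15-fold (1.07 to 1.24). Of the 28, 17 had a counting interval above a fold of 1 and 3 had one below, while over all evaluated genes 20.8% had an interval above and 26.0% one below.

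**Figure D4:**
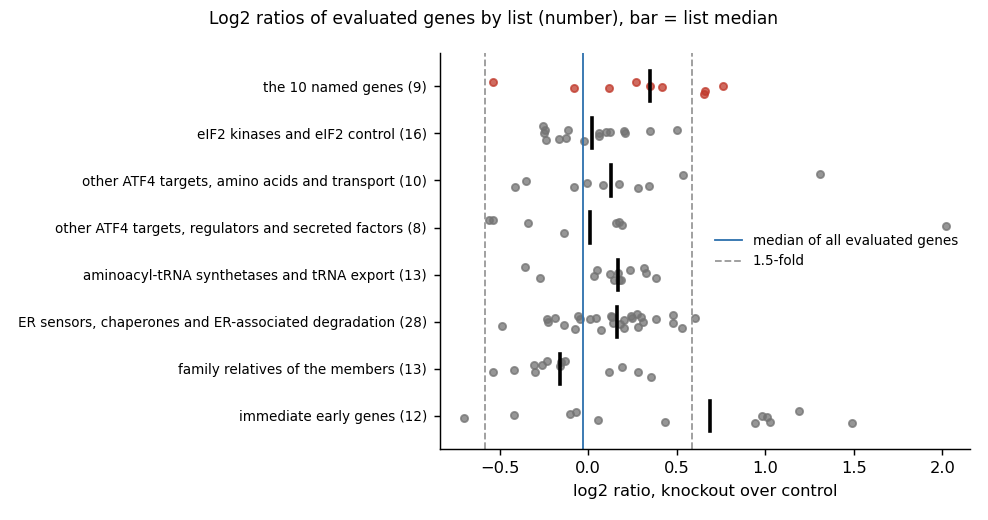
Log2 ratio of the knockout over the control for each evaluated gene of the 10 named genes (red) and of 7 related lists (grey), with the number evaluated in brackets and the list median as a black bar. The blue line is the median of all evaluated genes (-0.03) and dashed lines mark 1.5-fold. The medians run from -0.16 for the family relatives to 0.69 for immediate early genes, with the 10 named genes at 0.35.

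Of 15 relatives of the members by family, 13 were evaluated and 0 passed either rule. The log2 ratio was below 0 for 9 of the 13, against 54.0% of all evaluated genes, and the median log2 ratio was -0.16. Sesn3, a relative of Sesn2, was the lowest, with 320 reads in the knockout and 479 in the control (0.687-fold, 0.595 to 0.793), the reverse of the direction of Sesn2. Creb3l2, a membrane-bound factor of the endoplasmic reticulum, was the highest evaluated one, with 349 reads in the knockout and 281 in the control (1.28-fold). The most abundant was Cebpa, a dimer partner of CHOP and a main hepatocyte factor, at 0.850-fold (0.817 to 0.885). Trib1 was at 0.900-fold (0.812 to 0.997) and Chac2 at 0.895-fold (0.745 to 1.07).

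The same libraries were read for immediate early genes and for markers of other cells. For comparison, 5.93% of all evaluated genes were higher and 5.09% lower by the 1.5-fold rule, and 2.53% were higher by the 2-fold rule. Immediate early genes, which tissue handling, growth signals and stress can all induce, had 6 of 12 evaluated genes higher and 1 lower by the 1.5-fold rule, with a median log2 ratio of 0.69, and 4 of the 6 also passed the 2-fold rule. With 5 FPKM and 50 reads required, 8 genes remained, 3 higher and 1 lower, and their median log2 ratio was -0.0070; with no filter it was 0.32 over 16 genes. Ier3 and Egr1 reached the minimum in the knockout library only. The higher ones were Ier3, Egr1, Klf6, Jun, Junb and Btg2, with Jun at 370 reads in the knockout and 189 in the control (2.01-fold, 1.69 to 2.41). The lower one was Myc (0.613-fold, 0.510 to 0.736). Dusp1, the most abundant in the knockout, was at 1.04-fold (0.947 to 1.14), and Zfp36, the most abundant in the control, at 0.748-fold (0.683 to 0.820). Hepatocyte markers were all evaluated (8 of 8), with summed FPKM of 51285 in the knockout and 48575 in the control. By the 1.5-fold rule, markers of bile duct cells were higher in 7 of 7 evaluated genes of 9, with summed FPKM of 74.9 in the knockout and 16.5 in the control and no marker at 0. Of these, 4 (Krt19, Epcam, Cd24a and Bicc1) reached the expression minimum in the knockout library only and so had to be higher there. Stellate cell and fibroblast markers were higher in 4 of 9, at 51.8 FPKM in sum in the knockout and 36.8 in the control, and 2 of the 4 (Col1a1 and Col1a2) reached the minimum in the knockout only. Macrophage markers were higher in 1 and lower in 1 of 10 (169 FPKM in the knockout and 188 in the control). Of 8 endothelial markers 0 passed (72.5 FPKM in the knockout and 82.9 in the control). Erythroid genes were higher in 3 of 5 (357 FPKM in the knockout and 223 in the control). Lymphocyte and plasma cell markers summed to 1.47 FPKM in the knockout and 1.68 in the control, with 0 of 8 evaluated, and Cd79a had 0 reads in the knockout and 4 in the control. Of 7 pancreatic, gut and gall bladder genes 2 were evaluated and 0 passed (40.6 FPKM in the knockout and 51.3 in the control), with Cpa1 and Prss2 at 0 in both libraries. The evaluated ones were lower in the knockout, Cela1 at 0.717-fold (0.573 to 0.895) and Fabp2 at 0.726-fold (0.635 to 0.831). Below the expression minimum, Tff2 had 14 reads in the knockout and 0 in the control, and Vil1 had 25 in the knockout and 1 in the control. Tff2 and Vil1 were named after their values were seen. The part of these cells or signals in the members' differences was not tested.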

How the data were processed

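The table the authors deposited gives raw read counts and FPKM per gene for both libraries. The submitters' processing notes name Bowtie2 2.4.2 and mm10. No source used here gives the counting program, annotation release, strand setting or handling of multi-mapping reads, so reads shared with overlapping genes or near-identical copies are uncertain. The deposited FPKM values equal count over gene length and column total within a relative tolerance of 1e-06. Library totals were multiplied by TMM factors (edgeR 4.0.16, R 4.3.3). For log2 ratios 0.5 was added to both scaled counts, and folds had nothing added. Fold intervals are exact Clopper-Pearson intervals on the split of a gene's reads, level intervals are exact Poisson intervals, and neither covers more than counting error, as PCR copies were not marked by molecular identifiers. The calculation (scipy 1.17.1 under Python 3.11.15) was tested on simulated Poisson counts, which hold counting error only and no differences between mice. Genes named from each list were the extremes, the most abundant and those past the 1.5-fold rule, with Hnrnpk and genes overlapping a member. Other genes of a list were named after their values were seen. The members and lists were chosen with earlier results of these data known. Alternatives covered scaling (including DESeq2 1.42.0 size factors), unit, pseudocount, filter, gene length and GC content of the longest GENCODE transcript.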

Additional observations from a re-analysis of the deposited data

How the results depend on the processing

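Across 7 alternatives of scaling, unit, pseudocount, gene length and GC content, 70 of 70 member values kept their sign and 69 stayed within their counting interval. The exception was Atf5, at a log2 ratio of 0.61 with length and GC corrected. A pseudocount added equally to both libraries cannot reverse a sign, so those settings could not test it. The lowest log2 ratio of Ddit3 was 0.0037, with gene length corrected. The median of all evaluated genes shifted by less than 0.1 under each scaling. With no filter on low values, 1 member (Asns) was past 2-fold, as were 5 genes of amino acid supply, 4 ATF4-controlled regulators and 1 family relative, and by the 1.5-fold rule 2, 3 and 1. With 5 FPKM and 50 reads required, 4 members remained with a median log2 ratio of 0.53, amino acid genes past either rule numbered 0, immediate early genes 1 (2-fold) and 4 (1.5-fold), and the median log2 ratio of immediate early genes was -0.0070. Immediate early genes past 2-fold numbered 2 with the deposited FPKM or with 5 added. ATF4-controlled regulators past 1.5-fold numbered 2 under either correction, 1 higher and 1 lower. No paired analysis was possible because each genotype has 1 library, and for the same reason no library could be left out. Depth limits Ddit3, Trib3, Chac1 and Asns most, with at most 63 reads in either library.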
